A study of Homo sapiens with 16 samples.

Results

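The genes described here are 37 genes of cholesterol and fatty acid metabolism, out of 27037 genes counted in SK-N-BE(2)C, a human neuroblastoma cell line. They fall into 5 classes: 7 genes of the mevalonate steps, 11 of the sterol steps, 6 of SREBP control, 5 of LXR-type export and 8 of fatty acid synthesis. The members were chosen by pathway role, with earlier results of the same 16 libraries in view, so their counts of changed genes are a description of these libraries and no test of the list. All 37 were in the table and all 37 passed the filter on low counts, which kept 15415 genes.

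The study asked how palbociclib (PB), which blocks the D-cyclin kinases CDK4 and CDK6, and all-trans retinoic acid (RA), a retinoid used to differentiate neuroblastoma cells, change these cells alone and together. SK-N-BE(2)C is a single MYCN-amplified line, so every group shares 1 genetic background, and the replicates were different passages of it plated in separate experiments. Polyadenylated RNA was sequenced from 4 replicates of each of 4 groups: DMSO, the vehicle with neither agent; RA at 10 µM; PB at 1 µM; and PB + RA with both at those doses. Treatment lasted 5 days in all of them, per the study's methods.

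Cholesterol is built from acetyl-CoA, first by the mevalonate steps that make farnesyl diphosphate and then by the sterol steps that turn squalene into cholesterol. The SREBP transcription factors switch on most of these genes and the fatty acid synthesis genes when membrane sterol is low, after SCAP has escorted them out of the endoplasmic reticulum, and the INSIG proteins hold them back when sterol is high. The liver X receptors (LXR), which bind DNA as partners of the retinoid X receptors, act in the other direction by inducing sterol exporters such as ABCA1 and ABCG1.

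The promoters of 6 members are shown first as examples, and all 6 hold CCAAT in the window. They do not stand for the list, as members without CCAAT are not shown and SREBF2 was not called with PB. SREBP is known to act on promoters of cholesterol synthesis genes together with the CCAAT-binding factor NF-Y. The part of either factor in the changes with PB was not tested. Each sequence is the strand of the gene from base -200 to base -41 before the RefSeq start site (GRCh38.p14), and capitals mark CCAAT on either strand (read as ATTGG on the other) and, in SREBF2 only, the sterol regulatory element TCACNCCAC as well. HMGCS1 and FDPS lie at chr5:43313453-43313612 (minus strand) and chr1:155308666-155308825 (plus strand), MVK and MSMO1 at chr12:109573594-109573753 and chr4:165327469-165327628 (both plus), and INSIG1 and SREBF2 at chr7:155297678-155297837 and chr22:41832905-41833064 (both plus).
HMGCS1: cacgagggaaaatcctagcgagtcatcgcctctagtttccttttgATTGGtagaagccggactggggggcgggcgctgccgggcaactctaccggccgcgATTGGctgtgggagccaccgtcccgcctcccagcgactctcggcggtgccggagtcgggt
MVK: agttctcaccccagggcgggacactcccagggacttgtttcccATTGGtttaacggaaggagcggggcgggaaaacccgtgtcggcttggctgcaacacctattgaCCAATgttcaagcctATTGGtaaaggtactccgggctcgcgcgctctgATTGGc
FDPS: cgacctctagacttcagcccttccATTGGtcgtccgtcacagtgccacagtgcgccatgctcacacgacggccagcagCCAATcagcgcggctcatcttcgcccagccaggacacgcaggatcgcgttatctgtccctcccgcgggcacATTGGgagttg
MSMO1: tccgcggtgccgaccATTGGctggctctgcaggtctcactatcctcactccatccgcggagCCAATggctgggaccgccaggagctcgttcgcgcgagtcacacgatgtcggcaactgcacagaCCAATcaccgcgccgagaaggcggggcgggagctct
INSIG1: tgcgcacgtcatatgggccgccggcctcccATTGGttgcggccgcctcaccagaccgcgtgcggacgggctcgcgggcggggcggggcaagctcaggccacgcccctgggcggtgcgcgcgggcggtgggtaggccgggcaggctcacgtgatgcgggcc
SREBF2: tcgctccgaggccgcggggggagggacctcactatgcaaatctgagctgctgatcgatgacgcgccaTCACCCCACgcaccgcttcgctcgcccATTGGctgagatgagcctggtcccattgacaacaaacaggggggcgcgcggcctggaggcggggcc
The MVK window held 4 CCAAT boxes, the FDPS and MSMO1 windows 3 each, HMGCS1 2, and INSIG1 and SREBF2 1 each. Over the whole promoter in the RefSeq table (250 bases before to 50 after the start), 32 of the 37 members had an entry; ACAT2, FDFT1, SQLE, ABCG1 and FASN did not. CCAAT, searched on both strands, was present in 18 of the 32 (56.3%) against 35.7% of all 27305 promoters of that length, and the GC box GGGCGG in 29 (90.6%) against 44.6%. The sterol regulatory element TCACNCCAC was matched exactly in 1 of the 32, SREBF2, where it began at base -133, against 1.15% of all promoters, and with at most 1 mismatch in 12 (37.5%) against 24.2%. The E-box CACGTG, which reads alike on both strands, was in 5 (15.6%) against 7.43%. By class, CCAAT was present in 4 of 6 promoters of the mevalonate steps, 8 of 9 of the sterol steps, 3 of 6 of SREBP control, 1 of 4 of LXR-type export and 2 of 7 of fatty acid synthesis. Among members that fell with PB it was in 8 of 13, and among those not called in 9 of 16. The 27305 promoters were not limited to genes that passed the filter on low counts, as all members did, so these shares compare unlike sets. These matches describe letters in a window, and binding was not measured here.

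With PB, 16 members fell and 4 rose against DMSO, and the 16 included 6 of the 7 mevalonate genes and 7 of the 11 sterol genes. With RA alone 4 members rose and 0 fell. With both agents 14 fell and 3 rose, with 6 of the 7 mevalonate genes and 6 of the 11 sterol genes among the 14. A gene is said to rise or fall where edgeR's quasi-likelihood test, fitted to all 16 libraries, gave a p below 0.05 after Benjamini-Hochberg adjustment over every gene in the fit and the log2 fold change was beyond 0.5 in size. Over all genes tested, 11.3% fell and 16.9% rose with PB, 2.54% fell and 10.8% rose with RA, and 17.9% fell and 24.0% rose with PB + RA. The median log2 fold change of the members was -0.29 with PB, 0.16 with RA and -0.32 with PB + RA, where that of all genes was 0.03, 0.01 and 0.04. For the 0 members that fell with RA, 2 had a p below 0.05 in edgeR, both before and after adjustment, and DESeq2 called 0. These were PMVK at -0.27 and EBP at -0.23, under the fold minimum. Over both directions, 11 members passed the test with RA and missed the fold minimum. Without that minimum, 13 members were higher and 2 lower with RA, where 2893 and 2527 of all 15415 genes were.

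**Figure D1:**
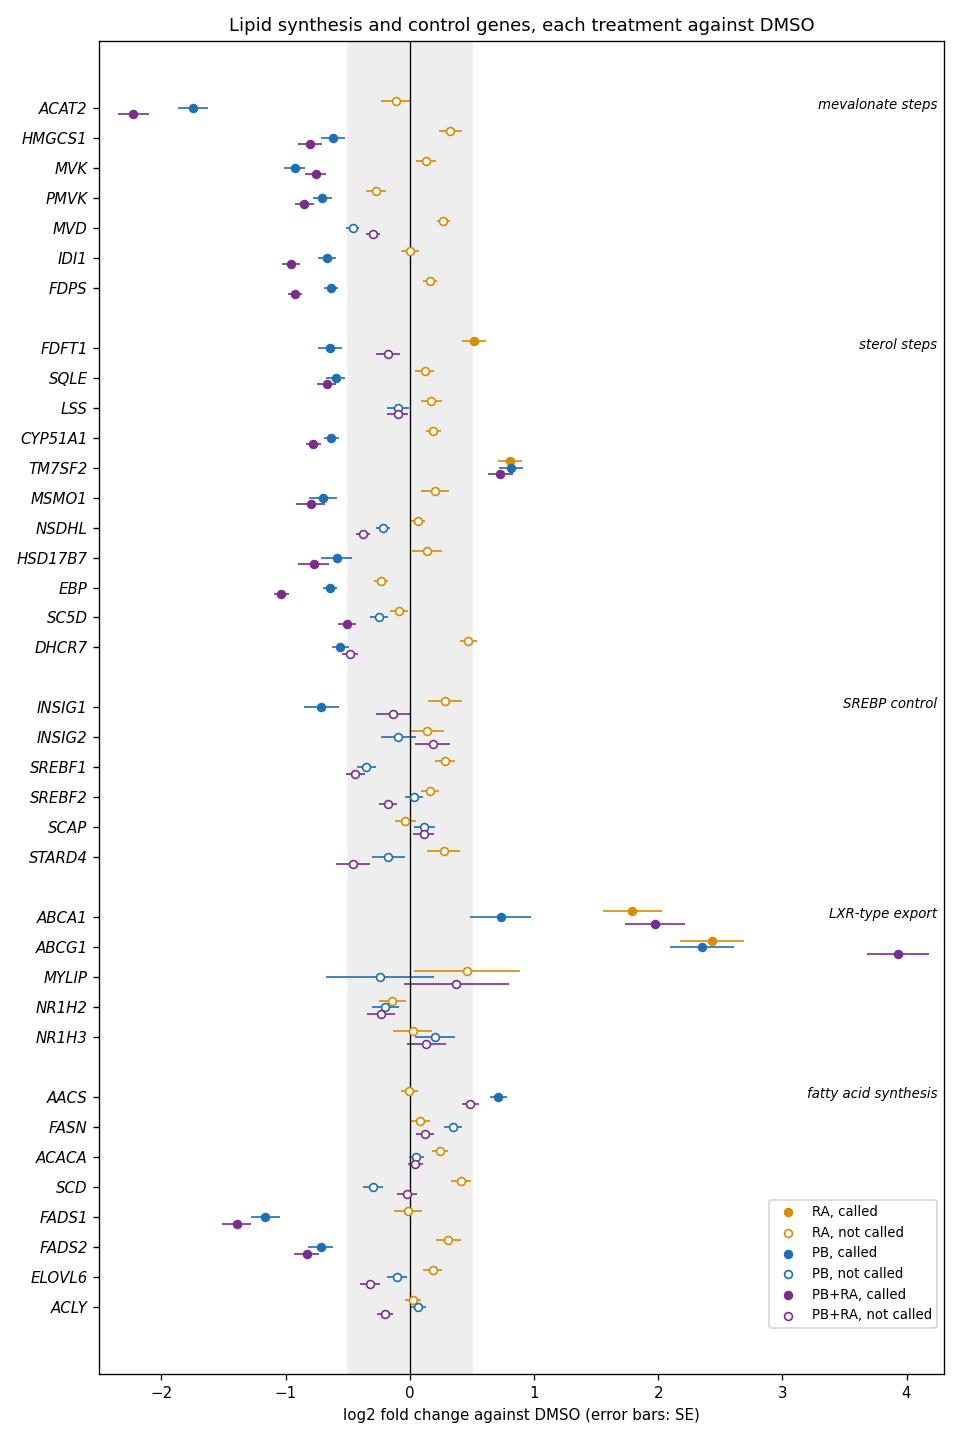
Log2 fold change against DMSO (x axis, error bars are SE) of each of the 37 members (y axis, by class) for RA, PB and PB+RA, with filled points where the gene was called and the grey band marking changes under the minimum of 0.5. The mevalonate genes lie left of 0 with PB and PB+RA, with ACAT2 farthest at -1.75 and -2.23, and ABCA1 and ABCG1 lie to the right under all 3 treatments.

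Each library held 19.5 to 31.6 x 1e6 counts, so that 3 counts corresponded to 0.0949 to 0.154 CPM (counts scaled to a library total of 1e6). The summed CPM of 8 proliferation markers, among them MKI67 and TOP2A, moved with the groups, averaging 2505 in DMSO, 2045 with RA, 1070.2 with PB and 510.0 with PB + RA. Each of the 8 fell with PB and with PB + RA. The 8 adrenergic markers of the line were present in every group, with a summed CPM of 4088 in DMSO, 4199 with RA, 6848 with PB and 6933 with PB + RA. The highest gene mean among the 8 was 1706, 1475, 3875 and 3809 CPM in the same order. The lowest was 71.1, 58.1, 93.0 and 51.8 CPM, so the sum does not stand for each marker. The 3 mesenchymal markers in the table summed to 119, 191, 92.8 and 108 CPM in the same order. The 2 endothelial, 2 leukocyte and 2 epithelial markers summed to at most 1.74, 6.55 and 3.10 CPM in any library. The part of any of these markers in the results was not tested. In bulk RNA, fewer cells of a kind and less RNA per cell cannot be told apart.

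Per kilobase of exon, taken over the union of all annotated exons of a gene, the members differed widely in DMSO. That union can be longer than the transcripts present, which were not determined, so it compares genes only roughly. SCD stood highest at 187 CPM per kb, followed by ACLY at 139, FASN at 97.8, ACAT2 at 72.7 and FDPS at 64.8. The exporters stood lowest, with ABCA1 at 0.247 and ABCG1 at 0.11 CPM per kb.

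The mevalonate steps had the lowest class median with PB, -0.67 on the log2 scale. With PB, 6 of 7 members fell, the exception being MVD at -0.46 ± 0.05 (log2, SE), which passed the test and missed the fold minimum. With RA none of the 7 was called, and their log2 fold changes lay between -0.27 and 0.33. With PB + RA the same 6 fell, by a class median of -0.85 on the log2 scale. Against RA alone, all 7 fell with PB + RA.

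ACAT2 (chr6:160183077-160200144, hg19), which joins acetyl-CoA units into acetoacetyl-CoA at the head of the pathway, had the largest fall of all 37. Its DMSO libraries held 199.7, 195, 191 and 182 CPM and its RA libraries 180.2, 205, 158 and 171, in the order of replicates 1 to 4. The PB libraries held 50.6, 50.6, 63.6 and 63.7 CPM and the PB + RA libraries 35.6, 34.8, 48.6 and 48.6. All 8 libraries with PB lay below all 8 without it, and the DMSO and RA libraries overlapped. In both groups with PB, replicates 1 and 2 lay below replicates 3 and 4; with either pair of replicates analysed alone, 16 members again fell with PB. Its mean fell by 70.2% under PB (log2 fold change -1.75 ± 0.12, edgeR adjusted p = 1.06e-08). Under both agents the mean fell by 78.2%, a log2 fold change of -2.23 ± 0.12 (adjusted p = 1.91e-10). ACAT2 shares 454 exon bases with TCP1 on the opposite strand, which averaged 499 CPM against 117 for ACAT2 and was not called, at -0.30 ± 0.06 with PB and -0.50 ± 0.06 with PB + RA; whether strand was used in counting is not stated, so the share of such reads in ACAT2 is unknown.

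IDI1 (chr10:1085092-1095059), the isomerase of the pathway's isoprene units, held 119, 119, 128 and 122 CPM in DMSO and 128, 127, 113 and 123 with RA. It held 72.3, 75.1, 77.2 and 81.3 CPM with PB and 55.4, 60.3, 67.1 and 73.0 with PB + RA. The 8 libraries with PB again lay below the 8 without it, while RA and DMSO overlapped at a log2 fold change of 0.00 ± 0.07. The log2 fold changes were -0.67 ± 0.07 for PB (edgeR adjusted p = 9.04e-07) and -0.96 ± 0.07 for the combination (5.58e-09).

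FDPS (chr1:155278539-155290457), which makes farnesyl diphosphate, held 237, 243, 247 and 237 CPM in DMSO and 265, 306, 251 and 265 with RA. With PB it held 153, 153, 159.9 and 155 CPM, and with PB + RA 119, 133, 130.5 and 137. The RA libraries all lay above DMSO and the PB + RA libraries all lay below PB, at log2 fold changes of 0.16 ± 0.06 and -0.29 ± 0.06, both under the fold minimum. The log2 fold change was -0.63 ± 0.06 with PB and -0.92 ± 0.06 with PB + RA (edgeR adjusted p = 1.39e-07 and 5.62e-10). HMGCS1, the synthase that feeds the pathway's committed step, had log2 fold changes of -0.62 ± 0.10 and -0.81 ± 0.10 in the same groups, both called. The kinases MVK and PMVK fell by 0.93 and 0.70 under PB, and the combination gave -0.76 and -0.85. MVK shares 225 exon bases with MMAB on the other strand, which had log2 fold changes of -0.64 and -0.80 in the same groups and was called in both.

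The sterol steps moved less evenly. With PB, 7 of 11 members fell (FDFT1, SQLE, CYP51A1, MSMO1, HSD17B7, EBP and DHCR7) and TM7SF2 rose. With PB + RA, 6 fell and TM7SF2 rose; SC5D was among the 6, and FDFT1 at -0.17 ± 0.09 and DHCR7 at -0.48 ± 0.07 were not. DHCR7 passed the test (edgeR adjusted p = 8.86e-06) and lay just under the fold minimum, which it passed in DESeq2 at -0.50. With RA alone FDFT1 and TM7SF2 rose. The class median log2 fold change was -0.59 with PB, 0.17 with RA and -0.50 with PB + RA.

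EBP (chrX:48380187-48387104), the sterol isomerase, had the largest fall of the class with PB + RA against DMSO. It held 86.4, 85.0, 83.0 and 77.3 CPM in DMSO, 72.0, 77.4, 66.5 and 68.6 with RA, 51.8, 50.8, 54.2 and 55.5 with PB, and 42.5, 39.4, 42.8 and 40.4 with PB + RA. The PB + RA libraries lay below those of PB, and both below all libraries without PB. Its log2 fold change was -0.64 ± 0.06 with PB and -1.03 ± 0.06 with PB + RA (edgeR adjusted p = 1.39e-07 and 1.82e-10).

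MSMO1 (chr4:166248819-166264316), the methylsterol oxidase, held 66.6, 69.2, 80.3 and 78.2 CPM in DMSO, 83.2, 83.9, 79.2 and 94.4 with RA, 42.9, 40.9, 48.1 and 49.1 with PB, and 34.3, 37.3, 49.4 and 51.8 with PB + RA. The PB and PB + RA libraries overlapped, and both groups lay below every library without PB. Its log2 fold changes were -0.70 ± 0.11 for PB (edgeR adjusted p = 7.87e-05) and -0.80 ± 0.11 for PB + RA (1.24e-05). CYP51A1 (chr7:91714301-91764117), the lanosterol demethylase, held 116, 119, 108 and 116 CPM in DMSO, 128, 138, 133 and 130.0 with RA, 76.4, 68.5, 75.6 and 76.1 with PB, and 62.0, 65.0, 75.1 and 71.9 with PB + RA. Its log2 fold changes in the groups with PB were -0.63 ± 0.06 and -0.78 ± 0.06 (edgeR adjusted p = 1.84e-07 and 5.95e-09), and its RA libraries all lay above its DMSO libraries.

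FDFT1, the squalene synthase that commits farnesyl diphosphate to sterol, rose with RA by 0.52 ± 0.09 on the log2 scale (edgeR adjusted p = 0.000574) and fell by 0.64 with PB. With PB + RA it averaged 238 ± 41.0 CPM (SD, n = 4) against 264 ± 13.7 in DMSO, a log2 fold change of -0.17 ± 0.09 that did not pass the test. The rise with RA lies just past the fold minimum, at 0.49 in DESeq2 and 0.38 with a correction for GC content and length. DHCR7, the reductase that forms cholesterol from its last precursor, was 0.47 ± 0.07 higher with RA, under the fold minimum, and fell by 0.56 with PB. TM7SF2, a sterol reductase, held 12.4 to 14.5 CPM in DMSO, 19.7 to 27.3 with RA, 21.5 to 24.8 with PB and 19.1 to 24.8 with PB + RA. It rose in all 3, by 0.82 with PB, 0.81 with RA and 0.73 with PB + RA (edgeR adjusted p at most 1.73e-05), and its 3 treated groups overlapped. SQLE, the squalene epoxidase, had log2 fold changes of -0.60 and -0.67 in those groups, and HSD17B7, a ketosteroid reductase, had -0.59 and -0.77; all 4 were called. LSS, NSDHL and SC5D lay between -0.24 and -0.09 with PB and were not called there; SC5D fell by 0.50 with PB + RA (-0.502), and in the fit with the replicate block it lay just under the minimum at -0.499 (edgeR adjusted p = 1.6e-08).

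Among the 6 SREBP control genes only INSIG1 was called with PB, and none with RA or with PB + RA against DMSO. Against RA alone, SREBF1 and STARD4 fell with PB + RA. The 6 members lay between -0.46 and 0.18 on the log2 scale with PB + RA against DMSO. There SREBF1 was called with the GC and length correction (-0.71), in replicates 1 and 2 alone (-0.53) and without replicate 4 of DMSO (-0.50), STARD4 in replicates 1 and 2 alone (-0.65) or without replicate 1 of DMSO or replicate 3 or 4 of PB + RA (-0.55 to -0.58), and INSIG1 in replicates 3 and 4 alone (-0.52).

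STARD4 (chr5:110831731-110848288), an intracellular sterol carrier, held 139, 173, 178 and 177 CPM in DMSO, 188, 189, 227 and 207 with RA, 140.4, 125, 168 and 158 with PB, and 97.6, 106, 146 and 147 with PB + RA. The RA libraries all lay above the DMSO libraries, and the PB + RA libraries overlapped DMSO. With PB + RA the log2 fold change was -0.46 ± 0.13 against DMSO, under the minimum, and -0.73 ± 0.13 against RA (edgeR adjusted p = 0.000262), which was called. SREBF1 (chr17:17713713-17740316), which encodes the SREBP best known for fatty acid genes, held 98.7, 113, 93.5 and 85.9 CPM in DMSO, 107, 135, 117 and 119 with RA, 75.1, 79.7, 75.8 and 75.8 with PB, and 76.9, 72.1, 74.3 and 70.2 with PB + RA. Both groups with PB lay below all DMSO libraries, at log2 fold changes of -0.35 ± 0.08 and -0.44 ± 0.08, and the fall of 0.72 against RA was called. INSIG2 (chr2:118846028-118868573), a retention protein for SCAP, held 9.89, 10.3, 11.4 and 11.4 CPM in DMSO, 12.1, 9.78, 12.7 and 12.9 with RA, 9.18, 8.71, 11.4 and 11.0 with PB, and 10.7, 9.56, 14.1 and 15.4 with PB + RA. All 4 groups of INSIG2 overlapped.

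INSIG1, itself a target of SREBP, fell by 0.71 ± 0.14 with PB (edgeR adjusted p = 0.000537), from 38.1 to 45.4 CPM in DMSO down to 24.0 to 29.0 with PB. Adding RA to PB raised it to 32.7 to 52.9 CPM, a rise of 0.58 ± 0.14 (adjusted p = 0.00478). Leaving out replicate 2 of PB + RA, its highest library, left 0.42, and replicates 3 and 4 alone gave 0.41, both under the fold minimum. SREBF2, SCAP and INSIG2 were not called in any of the 5 comparisons; SREBF2, the SREBP best known for cholesterol genes, lay within -0.34 to 0.16.

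The fatty acid synthesis class split by enzyme. The desaturases FADS1 and FADS2, which act on polyunsaturated fatty acids, fell with PB and with PB + RA. AACS, which activates acetoacetate for lipid synthesis, rose with PB. The enzymes that make saturated and monounsaturated fatty acids from acetyl-CoA, ACLY, ACACA, FASN, SCD and ELOVL6, were not called with PB, RA or PB + RA against DMSO.

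FADS1 (chr11:61567099-61596790) held 199, 203, 195 and 201 CPM in DMSO and 191, 207, 199 and 198 with RA. It held 80.1, 74.3, 98.7 and 103 CPM with PB and 65.9, 63.5, 88.7 and 91.9 with PB + RA. The 2 groups with PB overlapped each other and lay far below the 8 libraries without PB, at log2 fold changes of -1.16 ± 0.12 and -1.39 ± 0.12 (edgeR adjusted p = 5.12e-07 and 2.89e-08). FADS2 (chr11:61560452-61634826) held 337, 327, 325 and 333 CPM in DMSO, 397, 430.3, 404 and 418 with RA, 186, 173, 221 and 223 with PB, and 172, 153, 215 and 218 with PB + RA. Its log2 fold changes in the groups with PB were -0.72 ± 0.10 and -0.83 ± 0.10 (edgeR adjusted p = 1.61e-05 and 1.76e-06), and its RA libraries all lay above DMSO at 0.31 ± 0.10. FADS1 and FADS2 are neighbours on opposite strands that share 490 exon bases, so the split of reads between them is uncertain.

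AACS (chr12:125549980-125627879) held 48.5, 50.5, 51.3 and 51.9 CPM in DMSO, 48.3, 53.8, 51.4 and 49.5 with RA, 87.9, 90.3, 76.5 and 76.9 with PB, and 79.1, 76.3, 65.2 and 68.4 with PB + RA. All 8 libraries with PB lay above the 8 without it. The rise was 0.71 ± 0.07 with PB (edgeR adjusted p = 2.85e-07); with PB + RA the value was 0.49 ± 0.07, just under the minimum. The pseudogene AACSP1 averaged 9.46 CPM. SCD, the desaturase that makes oleate, averaged 981 ± 71.3 CPM in DMSO, 1313 ± 143 with RA, 799 ± 76.7 with PB and 984 ± 54.5 with PB + RA (SD, n = 4), and its log2 fold changes of 0.41, -0.29 and -0.02 were under the minimum. FASN, the fatty acid synthase, was 0.35 ± 0.07 higher with PB, and ACLY and ACACA lay between -0.20 and 0.25 against DMSO in all groups.

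The exporters rose under every treatment. ABCG1 (chr21:43619799-43717354), a cholesterol exporter of low abundance here, held 0.461, 0.693, 0.854 and 0.697 CPM in DMSO, 3.44, 3.36, 4.71 and 3.33 with RA, 2.49, 3.43, 4.47 and 3.58 with PB, and 8.55, 7.88, 14.3 and 11.9 with PB + RA. The RA and PB libraries overlapped, and all of the PB + RA libraries lay above both. The mean was 5.16 times that of DMSO with PB, 5.49 times with RA and 15.7 times with both. The log2 fold changes were 2.35 ± 0.26, 2.44 ± 0.26 and 3.93 ± 0.25, and adding either agent to the other raised ABCG1 again to 3.05 times the PB mean and 2.87 times the RA mean (edgeR adjusted p = 3.04e-05 and 1.75e-05).

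ABCA1 (chr9:107543287-107690436), the exporter that loads apolipoproteins, held 2.59, 2.12, 2.69 and 3.83 CPM in DMSO, 7.37, 7.28, 11.3 and 13.2 with RA, 5.75, 3.77, 3.80 and 5.30 with PB, and 10.2, 9.03, 10.3 and 15.6 with PB + RA. The RA and PB + RA libraries overlapped and both lay above PB, whose libraries overlapped DMSO, although each PB library lay above the DMSO library of the same replicate number. ABCA1 rose by 1.79 ± 0.24 with RA and 1.97 ± 0.24 with PB + RA (edgeR adjusted p = 3.78e-05 and 1.86e-06). The rise with PB alone, 0.73 ± 0.24 (adjusted p = 0.0186), was kept with the replicate block at 0.75 (adjusted p = 0.000245). It was lost without replicate 1 or 2 of DMSO or replicate 1 or 4 of PB, at 0.60 to 0.67, and in replicates 3 and 4 alone, at 0.46 (adjusted p = 0.178). NR1H3 and NR1H2, which encode the LXR receptors, and MYLIP, the ligase that degrades lipoprotein receptors, were not called in any comparison without the replicate block, which called MYLIP for RA added to PB, and lay between -0.24 and 0.46 on the log2 scale against DMSO. NR1H3 averaged 3.42 CPM and shares 189 exon bases with ACP2 on the other strand, at 33.5 CPM.

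**Figure D2:**
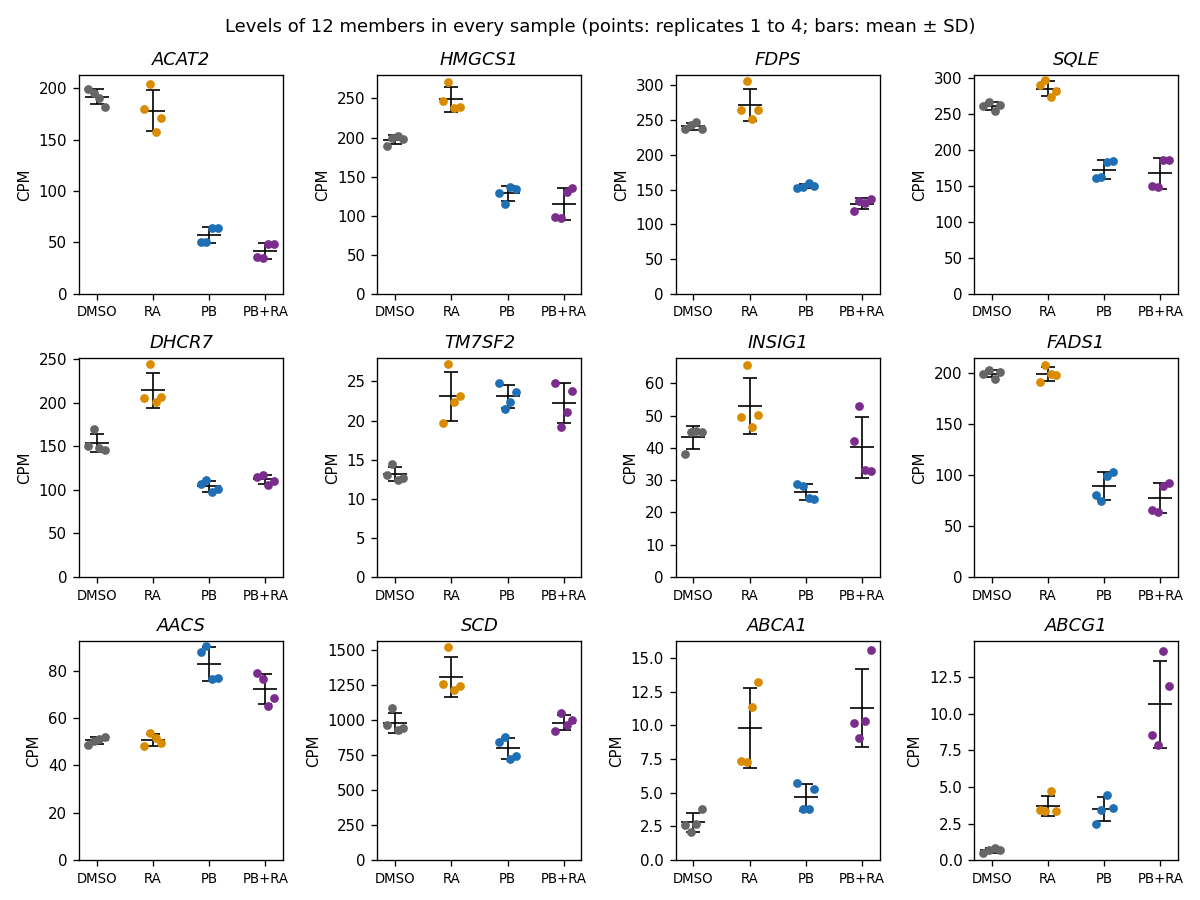
CPM (y axis) of 12 members in each of the 16 libraries, by group (x axis), with points for replicates 1 to 4 and bars for the mean and SD. In ACAT2, HMGCS1, FDPS, SQLE and FADS1 the PB and PB+RA points lie below the DMSO and RA points, and in ABCG1 the PB+RA points stand above the rest.

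Averages over a class put the mevalonate steps lowest and LXR-type export highest in cells given PB. The mean of log2(CPM + 0.5) less the DMSO mean was -0.82 ± 0.06 (SD, n = 4) with PB and -0.94 ± 0.09 with PB + RA for the mevalonate steps, against 0.08 ± 0.11 with RA. For the sterol steps it was -0.37 ± 0.04, -0.42 ± 0.10 and 0.22 ± 0.10 in the same order. For LXR-type export it was 0.43 ± 0.09, 1.06 ± 0.13 and 0.75 ± 0.10, where ABCA1 and ABCG1 were the members called; at a pseudocount of 2 the value with PB was 0.255. For SREBP control it was -0.19 ± 0.05, -0.14 ± 0.04 and 0.19 ± 0.04, and for fatty acid synthesis -0.14 ± 0.01, -0.24 ± 0.05 and 0.16 ± 0.08. These class means are a description of the chosen genes and were not tested.

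**Figure D3:**
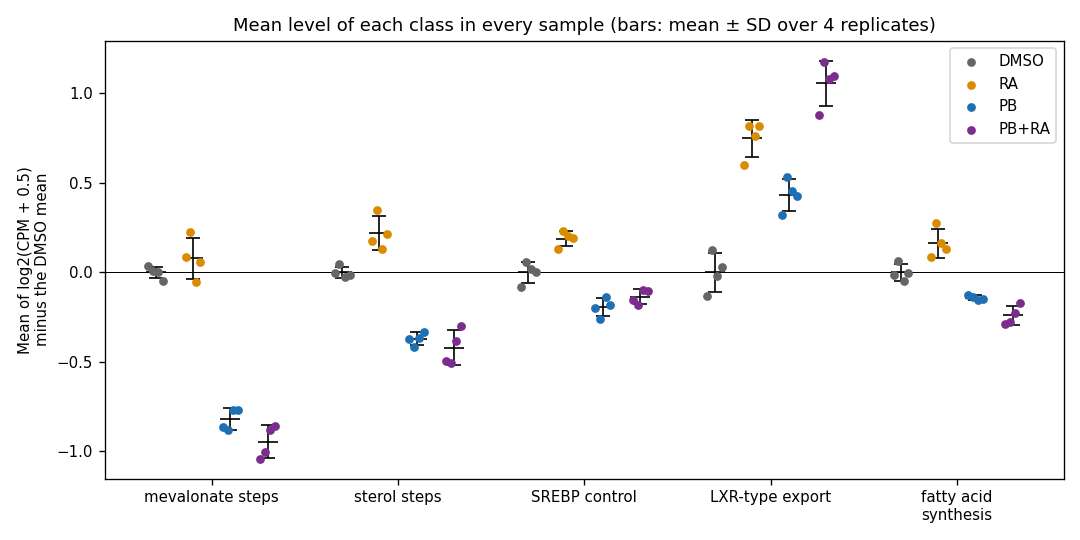
Mean over the members of each class of log2(CPM + 0.5) less the DMSO mean (y axis), for each of the 16 libraries by class (x axis) and group, with bars for the mean and SD over 4 replicates. The PB and PB+RA libraries of the mevalonate and sterol steps lie below 0, and those of LXR-type export lie above it.

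The comparison of PB + RA with RA addresses what PB does in cells already given RA, and shares no library with the comparison of PB with DMSO. It found 19 members that fell and 1, ABCG1, that rose, against 14.1% and 14.9% of all genes. Of the 16 that fell with PB alone, 15 (93.8%) were among the 19 (78.9%). The same overlap was not computed over all genes, so these shares do not set the members apart. INSIG1 was the exception. At -0.42 ± 0.14 it passed the test (edgeR adjusted p = 0.0195) and missed the fold minimum. Without replicate 2 of PB + RA it was called at -0.59, and in replicates 3 and 4 alone at -0.56. The 4 further members of the 19 were ELOVL6, MVD, SREBF1 and STARD4. ELOVL6 at -0.51 lay at the fold minimum and its call was lost in DESeq2 (-0.498).

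The comparison of PB + RA with PB addresses what RA adds to PB. Here 3 members rose, ABCA1, ABCG1 and INSIG1, and 0 fell, against 9.02% and 7.27% of all genes. For the 0 that fell, 13 members had an unadjusted p below 0.05 in edgeR and 11 an adjusted p below 0.05, all under the fold minimum, and DESeq2 called 0. Without the fold minimum, 3225 of all 15415 genes tested were lower at that adjusted p. ACAT2 at -0.48 ± 0.12 and EBP at -0.39 ± 0.06 were the farthest down. Of the 4 members that rose with RA against DMSO, a comparison of separate libraries, ABCA1 and ABCG1 (50% of the 4 and 66.7% of the 3) rose here as well, FDFT1 at 0.47 ± 0.10 passed the test (edgeR adjusted p = 0.00118) but not the fold minimum, and TM7SF2 at -0.09 ± 0.10 did not pass the test (adjusted p = 0.529). In the fit with the replicate block MYLIP passed as well, at 0.56 (adjusted p = 0.0101). The overlap with the members that rose with RA against DMSO was not set beside that of all genes.

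The interaction compares the change with both agents with the sum of the changes with each, on the log2 scale, so that a negative value means less than the sum. Of all genes, 0.415% were called above the sum and 3.02% below it; of the members, 0 were above and 2 below. TM7SF2 had the largest value, -0.89 ± 0.14 (edgeR adjusted p = 0.00149), with means of 23.1 CPM for either agent and 22.2 CPM for both. HMGCS1 followed at -0.52 ± 0.14 (adjusted p = 0.0349): RA raised its mean from 197 to 249 CPM without PB, whereas with PB the means were 129 and 115. Its call was lost in 13 of 16 leave-one-out fits and in DESeq2 (-0.49), and in replicates 3 and 4 alone its value was -0.25; that of TM7SF2 in replicates 1 and 2 alone was -0.86 (adjusted p = 0.085), no longer called. No member was above the sum even at an unadjusted p below 0.05 in edgeR, and DESeq2 called 0 above. Another 5 members, FDPS, CYP51A1, DHCR7, SREBF2 and ELOVL6, had an adjusted p below 0.05 with values of -0.45 to -0.33, under the minimum. Without the fold minimum, 7 of the members and 670 of all 15415 genes lay below the sum at that adjusted p. With the replicate block STARD4 at -0.57 and ABCG1 at -0.88 were called as well (adjusted p = 0.000951 and 0.00772). Over all genes that fit called 190 above the sum and 981 below it, against 64 and 466 without the block. In 30 of 37 members the RA change was lower in cells with PB than without it; it was positive in 29 without PB and in 10 with PB. Of all genes tested, 57.0% had a lower RA change with PB, and the RA change was positive in 51.4% without PB and 48.1% with it.

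**Figure D4:**
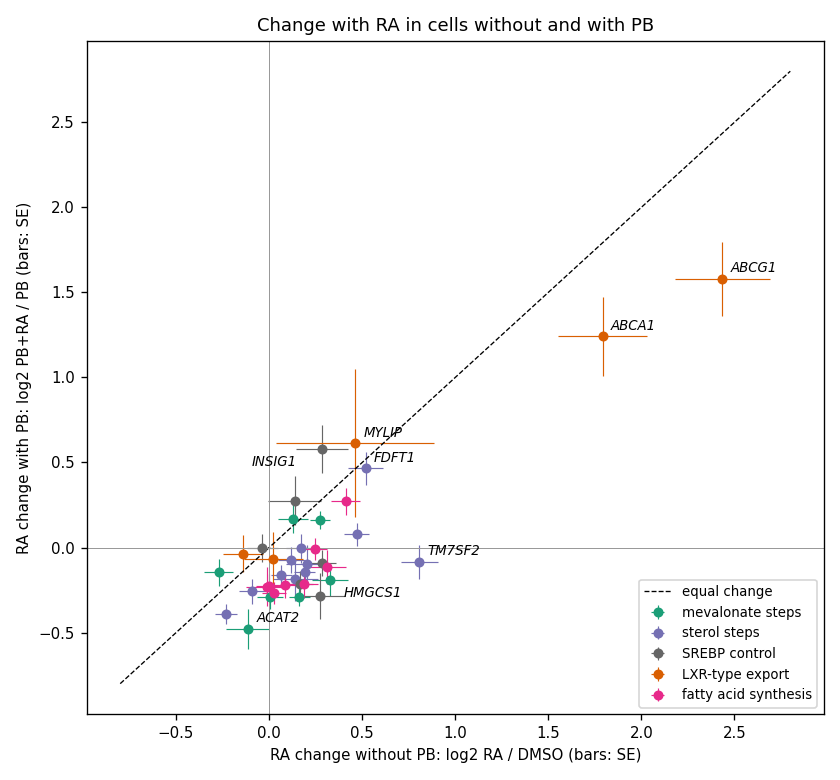
Log2 fold change with RA in cells given PB (y axis, PB+RA over PB) against that in cells without PB (x axis, RA over DMSO) for the 37 members, coloured by class, with SE bars and a dashed line of equal change. Most members lie below the line, TM7SF2 at 0.81 and -0.09, and ABCA1 and ABCG1 are high on both axes.

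Beyond the members, 58 further genes of the pathways were listed, of which 55 passed the filter. With PB + RA against DMSO, 9 of the 55 rose and 12 fell, where 24.0% and 17.9% of all genes did, and the median was -0.07 against 0.04. By list, 4 of the 12 genes of the isoprenoid branches and 1 of 9 of SREBP processing and turnover fell, and 0 rose in either. Of 19 of fatty acid elongation, desaturation and activation, 5 fell and 3 rose. Of 13 of sterol uptake, transport and storage, 5 rose and 2 fell. Of 2 of sterol oxidation, 1 rose and 0 fell. VLDLR, a lipoprotein receptor, rose by 2.18 ± 0.08, from 15.6 ± 1.13 to 72.0 ± 5.05 CPM (SD, n = 4), ACSL4, which activates arachidonic acid, by 1.48 ± 0.10, and NPC2, a carrier of lysosomal cholesterol, by 1.41 ± 0.30 (edgeR adjusted p at most 0.000627). The largest falls were those of ELOVL2, an elongase of polyunsaturated fatty acids, at -2.73 ± 0.73 with only 8 counts over the 4 PB + RA libraries, SOAT1, which esterifies cholesterol, at -1.56 ± 0.09, and TECR, a reductase of fatty acid elongation, at -1.43 ± 0.10.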

How the data were processed

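RNA-seq of 16 SK-N-BE(2)C samples was used, 4 in each of the 4 groups, with groups and replicate numbers from the sample titles. Per the study's methods and the submitters' processing notes, polyadenylated RNA was made into directional libraries, sequenced as paired ends, trimmed with Trim Galore 0.6.4 and aligned to hg19 with STAR (2.6.1d in the submitters' notes, another patch release in the study's text), which counted reads per gene. The deposited counts are these numbers with no normalization, and the deposited CPM are the authors' counts over each sample's total (equal within 5e-12). The annotation release and the strand column are not given in the sources used here. Another deposited table, of the authors' DESeq2 1.32.0 log2 fold changes and adjusted p-values, was not used.

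The members and all lists were chosen with earlier results of these data known. Counts were filtered with filterByExpr (15415 of 27037 genes), scaled by TMM (factors 0.983 to 1.02) and fitted in edgeR 4.0.16 (R 4.3.3) by the robust quasi-likelihood test with a coefficient per group over all 16 samples, with Benjamini-Hochberg adjustment over all genes. Calls needed an adjusted p below 0.05 and a log2 fold change beyond 0.5. The SE is the log2 fold change over the square root of F. DESeq2 1.42.0, other settings and leave-one-out fits are in the closing section, and the script was tested on simulated data. CPM per kb used union exon lengths of the hg19 annotation; promoters came from RefSeq (GRCh38.p14).

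Per-sample values were given for the 3 members of each class with the largest change with PB + RA against DMSO (2 for LXR-type export); other members are named with summaries, and FDFT1, HMGCS1, INSIG1 and TM7SF2 in more detail for their calls. Further pathway genes were named by largest change, at most 3 in each direction. Libraries held 19.5 to 31.6 x 1e6 counts, and values under 3 counts (0.0949 to 0.154 CPM) cannot be told from none. Replicate numbers were taken to pair the samples. The methods give each replicate as a separate passage and experiment, and do not say that equal numbers were plated together. Over 24 same-number pairs the deviations from the group means correlated at 0.330 to 0.573. No correlation was computed for pairs of unlike number. These values therefore cannot tell pairing by number from the split of replicates described below. The main fit had no term for the replicate number, as the methods state no covariate, so its SE and p-values leave this pairing out. The fit with the replicate block takes it in and was run as a check. Replicates of a group differed by more than sampling noise (chi-square per degree of freedom 3.11 to 31.1). In every group replicates 1 and 2 lay close, as did replicates 3 and 4, at 3.11 to 9.66. All pairs across these 2 sets lay at 12.5 to 31.1. The sample titles do not say what set them apart, and the SD and SE given here do not separate it.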

Additional observations from a re-analysis of the deposited data

Results flagged for a closer look

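In 10 of the 148 sets of 4 replicates checked (37 members in 4 groups), 1 replicate lay far from the other 3; chance gives about 1 in 20, or 7.4 sets. Replicate 2 of RA was the highest of its group in DHCR7 at 244 CPM, SCD at 1526 CPM and ELOVL6 at 113 CPM. Replicate 2 was also the highest in SREBF1 with PB at 79.7 CPM and in MYLIP in DMSO at 9.01 CPM and with PB + RA at 13.4 CPM, and the lowest in CYP51A1 with PB at 68.5 CPM. Replicate 1 of DMSO was the lowest in INSIG1 at 38.1 CPM and STARD4 at 139 CPM. Replicate 3 of RA was the highest in ABCG1 at 4.71 CPM.

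The effect of RA differed between cells with and without PB in 2 members by the interaction test of edgeR over all genes. The value was -0.52 for HMGCS1 (adjusted p = 0.0349) and -0.89 for TM7SF2 (adjusted p = 0.00149), on the log2 scale. The call of HMGCS1 was lost in 13 of 16 leave-one-out fits, under RLE, no filter, DESeq2 and the GC and length offset, and in replicates 3 and 4 alone (-0.25), and that of TM7SF2 in replicates 1 and 2 alone (-0.86, adjusted p = 0.085).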

How the results depend on the processing

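No direction of a called member was reversed under any setting tried: RLE size factors, no filter on low counts, DESeq2, the replicate block, a GC and length offset, replicates 1 and 2 or 3 and 4 alone, and leaving out each library. Without a fold minimum the counts became 13 higher and 2 lower with RA, and 22 lower with PB + RA against DMSO. They became 6 higher and 11 lower against PB, 2 higher against RA, and 7 below the sum of the single changes. Of all 15415 genes, that setting gave 2893 higher and 2527 lower with RA, and 4839 lower with PB + RA against DMSO. It gave 2652 higher and 3225 lower against PB, 4090 higher against RA, and 670 below the sum. In replicates 1 and 2 alone there were 1 lower against PB, 2 higher against RA and 4 below the sum. Over all 15515 genes in that fit, 1053, 2389 and 459 were called in the same order. The count of members below the sum was 1 under RLE, no filter, DESeq2, the GC and length offset and replicates 3 and 4. Over all genes in those fits it was 394, 322, 516, 357 and 560 in the same order. With the replicate block it was 4 of the members and 981 of all genes. Leaving out 1 library moved the count below the sum between 1 and 2, the count higher against RA between 1 and 2, and the count lower against PB between 0 and 1, and the class level of fatty acid synthesis with PB between -0.158 and -0.121. That of the mevalonate steps with RA lay between 0.0296 and 0.122 around 0.0783. The class level of LXR-type export was 0.876 with RA, 0.540 with PB and 1.20 with PB + RA at a pseudocount of 0.1, and 0.516, 0.255 and 0.766 at 2; the cause was not tested. Beside the calls named in the report the replicate block changed no other call of a member. Members that passed or failed the fold minimum with the setting, beside those given in the report, included MVD (-0.58) and SREBF1 (-0.52) with PB under the GC and length offset, AACS (0.62) with PB + RA, ACAT2 (-0.54) against PB and SCD (-0.52) against RA in replicates 1 and 2 alone. ABCG1 is the member with the fewest counts, 75 over the 4 DMSO libraries.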
